A study of Mus musculus with 8 samples.

Results

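The simple epithelial keratins *Krt7*, *Krt8*, *Krt18* and *Krt19* were followed from untreated mouse embryonic stem (ES) cells to cells treated with retinoic acid (RA). They were chosen by gene name, as every array probe other than controls that the scanner output assigns to one of these 4 symbols, and their values played no part in the choice. The 4 genes carry 5 probes, since *Krt8* has 2, out of 55681 probes on the array and 21093 genes with a current symbol. E14Tg2A.4 ES cells, a pluripotent line from the inner cell mass of a mouse embryo, were either left without treatment or given RA for 72 h, with 4 biological replicates of each condition. RA, a derivative of vitamin A that acts through nuclear receptors, was added in medium without leukemia inhibitory factor, the cytokine that keeps ES cells self-renewing, so that a response to RA and a response to the missing cytokine cannot be told apart. Total RNA labelled with Cy3 was hybridized to 8 Agilent 1-colour arrays, where a brighter spot means more of the transcript its probe binds.

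Keratins are intermediate filament proteins of epithelial cells. A filament is built from pairs of a type I and a type II keratin, and a keratin without a partner of the other type is degraded. *Krt8* (type II) and *Krt18* (type I) encode the partners of the simplest epithelia, and they are the earliest keratins of the mouse embryo, where they appear in the trophectoderm and then in extraembryonic endoderm. *Krt7* (type II) and *Krt19* (type I) join them in many ductal and glandular epithelia, in mesothelium and in trophoblast. Stratified epithelia such as the epidermis use other keratins, among them *Krt5* with *Krt14* in the basal layer and *Krt1* with *Krt10* above it.

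The probes report the following stretches of the transcripts, shown because each value below is the brightness of 1 such stretch. In mm9 coordinates, as in the scanner output, the *Krt7* probe lies at chr15:101253718-101253777 on the plus strand and the *Krt19* probe at chr11:100002392-100002451 on the minus strand. One *Krt8* probe lies in the coding part of the transcript at chr15:101828827-101828886 on the minus strand, and the other at its 3′ end at chr15:101827138-101827197, which is not printed. The *Krt18* probe lies at chr15:101862341-101862400 on the plus strand and is printed up to the stop codon, which its last 3 bases spell. The sequences are 5′ to 3′ and in lower case, as no motif was searched in them.
Krt8, coding probe: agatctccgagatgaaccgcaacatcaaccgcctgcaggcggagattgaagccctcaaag
Krt18, last 52 coding bases of the probe: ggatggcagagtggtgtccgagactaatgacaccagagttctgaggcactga
Krt7: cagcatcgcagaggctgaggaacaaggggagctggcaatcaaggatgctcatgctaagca
Krt19: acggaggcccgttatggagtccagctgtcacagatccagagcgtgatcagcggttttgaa
Whether a probe also binds transcripts of processed copies of these genes was not tested.

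Each value is the log2 of the background-corrected intensity relative to the 75th percentile of its array. A value of 0 is the 75th percentile, and each unit is a doubling. Conditions were compared with limma, and p-values were adjusted over all probes by the Benjamini-Hochberg method. A probe was called higher or lower in RA-treated cells at an adjusted p under 0.05 and a fold change above 1.5, which are the limits of the study. Over the whole array 12.9% of the probes were called higher and 21.6% lower, and the median change of all probes was -0.28 on the log2 scale. With each gene taken by its brightest probe, 18.7% of the genes were called higher and 23.5% lower. The balance depends on the scaling, since 37.4% of the calls on probes were higher with the 75th percentile, 48.4% with quantile normalization and 54.3% with the median. Per array, the share of spots well above background ranged from 56.7% to 62.7%, and 0 spots were saturated.

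The labels were checked on pluripotency genes. *Pou5f1*, which encodes Oct4, had values of 5.77, 5.68, 5.29 and 6.0 in untreated replicates 1 to 4 and of 0.39, 2.05, -0.68 and -1.16 in RA-treated replicates 1 to 4, a change of -5.54 (SE 0.61, adjusted p = 0.000152). *Nanog* changed by -4.55 (SE 0.51, adjusted p = 0.000167). All 10 pluripotency markers were called lower, with RA-treated replicate 2 keeping the highest *Pou5f1* of its condition.

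All 4 simple epithelial keratins were higher after RA, by 34.9-fold to 71.1-fold over their 5 probes. Each probe was well above background on all 8 arrays, and for each probe the lowest RA-treated array lay above the highest untreated array. Such a separation was found for 20.9% of all genes. Ranked by log2 fold change among the 15404 genes that both conditions showed well above background on 1 array or more, *Krt7* was number 39, *Krt8* number 47, *Krt19* number 54 and *Krt18* number 76. *Krt8* was ranked by its brighter 3′ end probe. Its coding probe, at 6.15, changed more than *Krt7*, at 5.84, so the order of these genes depends on the probe. Genes on no array of a condition well above background have at most a bound and were not ranked. Because the arrays measure RNA of whole cultures, more cells that express a keratin and more RNA per cell cannot be told apart here or in any result that follows.

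**Figure D1:**
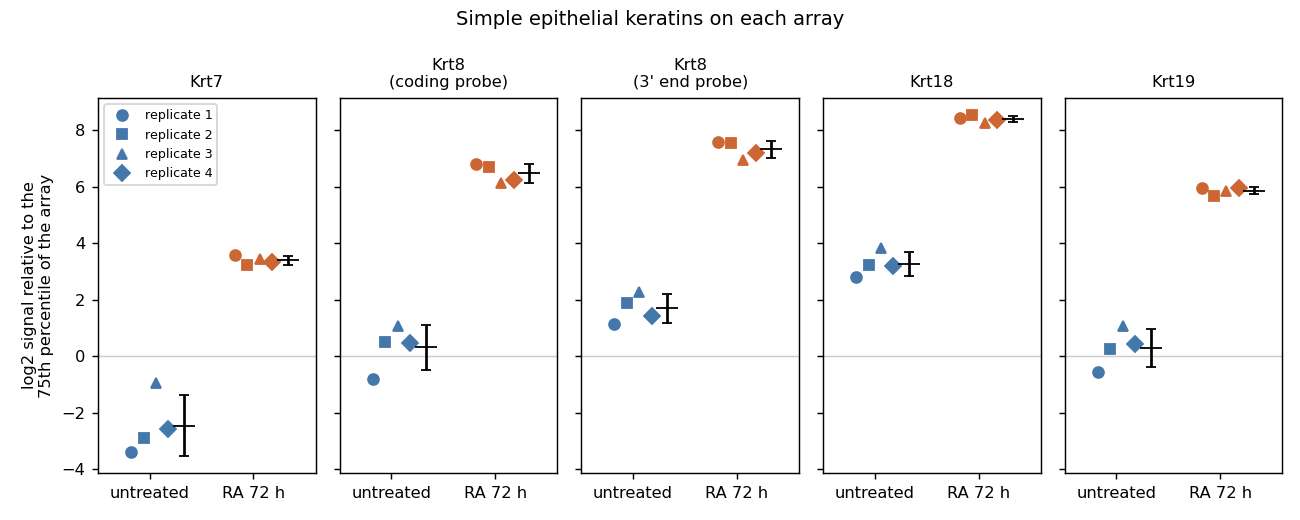
Log2 signal relative to the 75th percentile of the array (vertical axis, the grey line at 0) for each probe of *Krt7*, *Krt8*, *Krt18* and *Krt19* in 4 untreated (blue) and 4 RA-treated (orange) arrays, the symbol giving the replicate number and the black bar the mean ± SD of the condition. In every panel the RA-treated arrays sit above the untreated arrays and close together, while untreated replicate 1 is the lowest and untreated replicate 3 the highest array of its condition.

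*Krt8* encodes the type II keratin that pairs with the products of *Krt18* and *Krt19*. Its coding probe read -0.79, 0.52, 1.07 and 0.48 in untreated replicates 1 to 4, and 6.80, 6.70, 6.14 and 6.25 in RA-treated replicates 1 to 4. The untreated arrays span the 75th percentile of the array, from below it in replicate 1 to above it in replicate 3. The mean went from 0.32 ± 0.79 to 6.47 ± 0.32 (SD, n = 4 each), a log2 fold change of 6.15 with a 95% interval of 5.31 to 7.0, or 71.1-fold (limma, SE 0.37, adjusted p = 7.57e-06). The 3′ end probe read 1.16, 1.89, 2.29 and 1.45 without RA and 7.60, 7.55, 6.96 and 7.21 with it. It gave a log2 fold change of 5.63 with a 95% interval of 5.02 to 6.24, or 49.5-fold (SE 0.27, adjusted p = 2.94e-06). The 2 probes were thus called in the same direction, with the same arrays at the extremes of the untreated condition. The change of the coding probe was larger by 0.52 on the log2 scale (95% interval 0.0045 to 1.04), and the within-array difference did not overlap between conditions (exact permutation test over the 8 arrays, two-sided p = 0.0286, the smallest that 70 divisions of the arrays allow). With same-numbered arrays as pairs, a test added after the data had been seen, the coding probe changed more by 1.15, 0.52, 0.41 and 0.01 in replicates 1 to 4, the interval was -0.23 to 1.27, and the exact sign-flip p was 0.125, the smallest that 4 pairs allow. The paired test thus cannot pass, and the difference between the probes was not called in it.

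*Krt18*, the type I partner of *Krt8*, read 2.82, 3.24, 3.84 and 3.20 in untreated replicates 1 to 4 and 8.44, 8.54, 8.26 and 8.35 in RA-treated replicates 1 to 4. All untreated arrays were above the 75th percentile of the array, so this transcript was detected well before treatment. The mean went from 3.27 ± 0.42 to 8.40 ± 0.12 (SD, n = 4 each), a log2 fold change of 5.12 with a 95% interval of 4.63 to 5.61, or 34.9-fold (limma, SE 0.22, adjusted p = 2.02e-06). The probe reached an intensity of 297609 to 405143 on the RA-treated arrays, below the lowest scanner saturation value of 779401.

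*Krt19* encodes the smallest type I keratin, which lacks most of the tail domain. It read -0.56, 0.26, 1.07 and 0.44 without RA and 5.94, 5.68, 5.87 and 5.97 with it, in the order of the replicates. The RA-treated arrays lie within a narrow band, and the untreated arrays are spread more widely. The mean went from 0.30 ± 0.67 to 5.86 ± 0.13 (SD, n = 4 each), a log2 fold change of 5.56 with a 95% interval of 4.87 to 6.26, or 47.3-fold (limma, SE 0.31, adjusted p = 5.15e-06).

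*Krt7*, a type II keratin of ducts, glands and trophoblast, read -3.40, -2.89, -0.92 and -2.58 in untreated replicates 1 to 4, below the 75th percentile on every array. In RA-treated replicates 1 to 4 it read 3.58, 3.24, 3.43 and 3.33. Untreated replicate 3 stood well above the other untreated arrays, with an intensity of 539 against 73.4 in replicate 1. The mean went from -2.45 ± 1.07 to 3.39 ± 0.15 (SD, n = 4 each), a log2 fold change of 5.84 with a 95% interval of 4.79 to 6.90, or 57.4-fold (limma, SE 0.46, adjusted p = 2.61e-05). *Krt7* had the widest interval of the 5 probes.

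Levels of the 4 keratins were not set against each other, as each probe binds with its own strength, but the sizes of their changes can be compared within arrays. All 6 pairs of the genes were tested with exact two-sided permutation tests over the 8 arrays, *Krt8* being represented by its brighter 3′ end probe. The change of *Krt8* exceeded that of *Krt18* by 0.51 on the log2 scale (95% interval 0.18 to 0.83), and the within-array difference did not overlap between conditions (exact p = 0.0286, adjusted over the pairs 0.171). With same-numbered arrays as pairs this difference was above 0 in 4 of 4 replicates, with an interval of 0.09 to 0.93 and an exact sign-flip p of 0.125. The change of *Krt18* was 0.44 below that of *Krt19*, with an interval of the difference from -0.89 to 0.01 (exact p = 0.0857, adjusted 0.257). In the paired form it was below 0 in 4 of 4 replicates, with an interval of -0.95 to 0.07 and an exact sign-flip p of 0.125, the smallest possible. *Krt7* and *Krt8* differed by 0.21 (-0.73 to 1.16), *Krt8* and *Krt19* by 0.07 (-0.53 to 0.67), and *Krt7* and *Krt19* by 0.28 (-0.38 to 0.94). *Krt7* and *Krt18* differed by 0.72 (-0.14 to 1.58). No pair passed after adjustment, and intervals of this width do not show that the changes were equal.

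The spread of the keratins lay mainly in the untreated cells. For all 5 probes the SD of the untreated arrays exceeded that of the RA-treated arrays, untreated replicate 3 was the highest untreated array and untreated replicate 1 the lowest. In replicate 3 the probes stood above the untreated mean by 1.52 for *Krt7*, 0.76 for *Krt19*, 0.75 and 0.59 for the *Krt8* probes and 0.56 for *Krt18*. In replicate 1 they stood at -1.11 for the *Krt8* coding probe, -0.95 for *Krt7* and -0.86 for *Krt19*. Over the 3948 genes called higher on the array, replicate 3 was the highest untreated array for 32.3% and the lowest for 30.8%. Replicate 1 was the lowest for 31.8% and the highest for 15.4%.

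**Figure D2:**
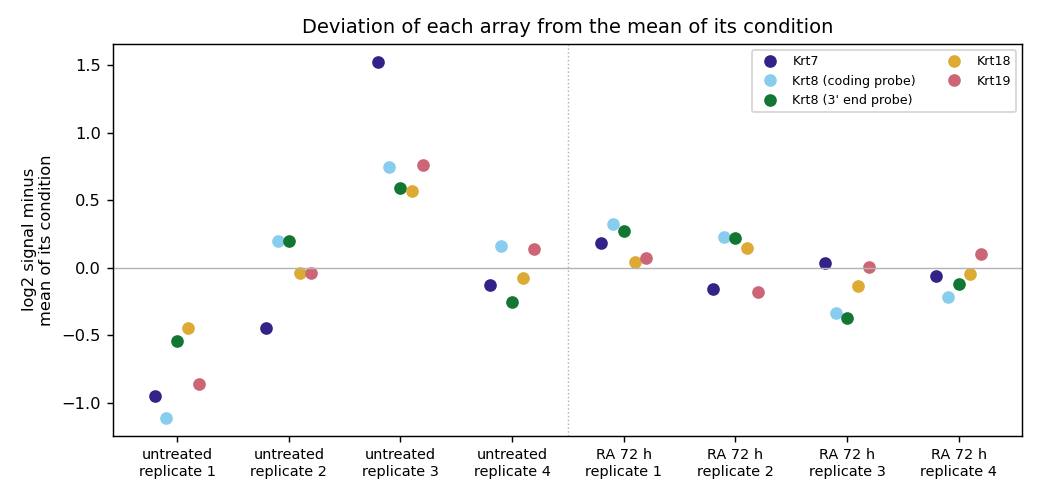
Deviation of each array from the mean of its own condition, on the log2 scale (vertical axis), for the 5 probes of the simple epithelial keratins (colours) on the 8 arrays (horizontal axis, untreated left of the dotted line). All 5 points lie below 0 in untreated replicate 1 and above 0 in untreated replicate 3, where *Krt7* reaches 1.52, and the points of the RA-treated arrays keep closer to 0.

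Of the 11 stratified epithelium markers 8 were highest in untreated replicate 3 among the untreated arrays. The same held for 2 of 12 trophoblast markers and for 2 of 16 extraembryonic endoderm markers. Of the latter 11 were highest in untreated replicate 2. The share over all genes was not determined. The summed linear level of the 11 stratified epithelium markers, in multiples of the 75th percentile, was 13.7, 17.8, 47.4 and 18.9 in untreated replicates 1 to 4. Such a sum, here and below, adds the brightness of probes that each bind with their own strength. The part of a gene in it is therefore not its share of the RNA. Most of this brightness came from the probes of *Perp* and *Trp63*. *Perp*, a junction gene also expressed outside stratified epithelium, stood at 5.71, 7.24, 24.9 and 12.2 on the same linear scale. *Trp63*, the transcription factor of basal epithelium, stood at 3.95, 7.44, 17.8 and 2.78. *Krt15*, a keratin of basal cells, read -3.33, -4.10, -0.89 and -3.23, and *Krt5* read -3.57, -3.84, -1.26 and -3.82, on the log2 scale. *Krt10*, at 1.43, 0.67, 0.84 and 1.0, was not highest in replicate 3. The summed pluripotency markers were lowest in replicate 3, at 488 against 650 to 682 in the other untreated arrays. The summed fibroblast markers, 1.16 to 2.01 over the untreated arrays, were not highest there. The part of these differences in the keratin values was not tested, and without untreated replicate 3 the log2 fold changes were 6.35 for *Krt7*, 6.40 and 5.83 for *Krt8*, 5.82 for *Krt19* and 5.31 for *Krt18*, all called.

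Beyond these 4, the array carries 48 keratin genes, of which 11 were called higher, 8 lower and 29 were not called. These are 22.9% and 16.7% of them, near the 18.7% and 23.5% of all genes. With normexp background correction 6 were called higher, and with quantile normalization added 7 were called higher and 5 lower. Their median log2 fold change was -0.27, beside -0.26 for all genes. Of the 25 other type I keratins 6 were called higher and 4 lower, and of the 20 other type II keratins 3 were called higher and 3 lower. Probes of 16 of the 48 were well above background on no array. Among the keratins called higher, *Krt6a*, *Krt35*, *Krt78*, *Krt88* and *Krt90* were well above background on no untreated array. Of these *Krt90* was at least 2.79-fold, *Krt35* at least 1.54-fold and *Krt78* at least 1.38-fold higher. *Krt20*, a type I keratin of intestinal and urothelial surface cells, rose by 6.61 (SE 0.38, adjusted p = 5.74e-06). Its values were -5.17, -4.65, -3.47 and -5.24 without RA, well above background on 2 arrays, and 2.11, 1.75, 2.29 and 1.77 with RA. *Krt15* rose by 3.97 (SE 0.60, adjusted p = 0.00084) and *Krt81*, a type II hair keratin, by 3.5 (SE 0.28, adjusted p = 2.70e-05). *Krt42* rose by 3.30 and *Krt13* by 2.83.

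Keratins of stratified epithelium gave mixed values. *Krt5* changed by 0.28 (adjusted p = 0.733) and *Krt14*, its partner, by -0.58 (adjusted p = 0.158), neither of which passed the test. *Krt10* fell by 1.37, and *Krt1* was at least 2.30-fold lower, being well above background on all untreated arrays and on no RA-treated array. *Krt71*, a type II keratin of the hair root sheath, fell by 3.52 (SE 0.57, adjusted p = 0.00131) and was well above background on 1 RA-treated array, and *Krt17*, a type I keratin of hair follicles and stressed epidermis, fell by 1.91. For *Krt6a* and *Krt88*, called higher, no fold is given, because their RA-treated level did not exceed the untreated detection limit.

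**Figure D3:**
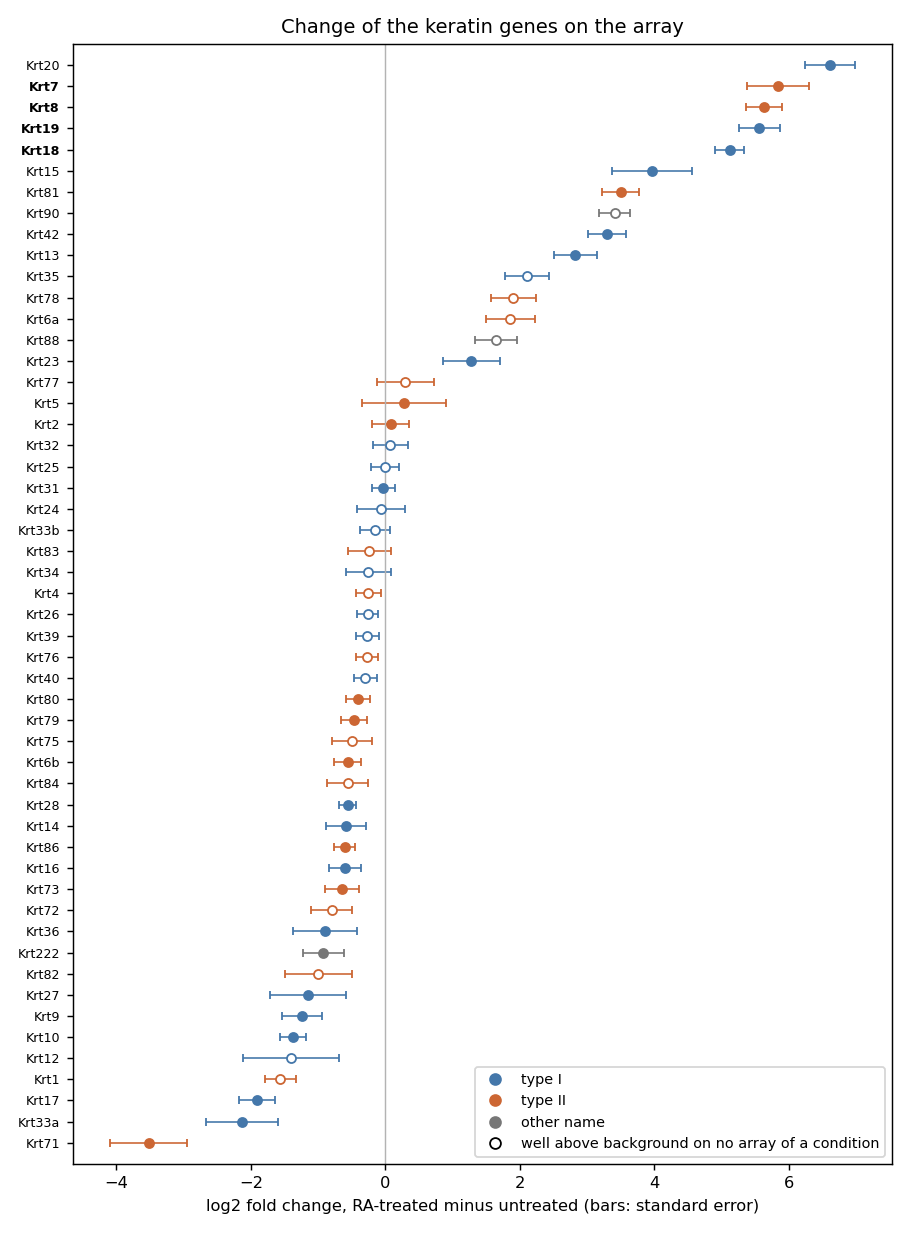
Log2 fold change, RA-treated minus untreated (horizontal axis, bars give the standard error), of the 52 keratin genes on the array, ordered by the change, with type I in blue, type II in orange and the 4 simple epithelial keratins in bold. The 4 stand directly below *Krt20* at 5.12 to 5.84 and apart from most other keratins, and open points mark probes well above background on no array of a condition, whose fitted change is not a measured fold.

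Keratin genes lie in gene clusters, type II with *Krt18* on chromosome 15 and most type I genes on chromosome 11, so the genes next to the 4 were also examined. This choice was made after the values had been seen. *Krt8* and *Krt18* are adjacent in the order of protein-coding genes. On the far side of *Krt8* lie *Krt78*, at least 1.38-fold higher, then *Krt79*, which changed by -0.46 (adjusted p = 0.0882), and *Krt4*, well above background on no array. On the far side of *Krt18* lie *Eif4b*, a translation initiation factor gene that changed by -0.31 (adjusted p = 0.204), and *Tns2*, which encodes a focal adhesion protein and rose by 2.23. The neighbours of *Krt7* are *Krt80*, which changed by -0.41 (adjusted p = 0.119), and *Krt88*, with *Krt81* beyond it. *Krt19* has *Krt15* and *Krt13* on one side, both called higher, and *Krt9* on the other, which fell by 1.24.

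The stretch of 250 bases before the start of each gene was searched for 5 short motifs on both strands. These were TATAAA (the TATA box), TGACTCA (bound by AP-1), GGGCGG (bound by Sp1), AGGTCA (a unit that retinoic acid receptors bind) and CCGGAA (the Ets core). The windows are from RefSeq on GRCm38.p6, and *Krt7*, *Krt8* and *Krt18* have an entry in the table used. They are shown because all 3 genes moved together, 5′ to 3′ in the direction of the gene, with matches in capitals.
Krt7, chr15:101412153-101412402, plus strand: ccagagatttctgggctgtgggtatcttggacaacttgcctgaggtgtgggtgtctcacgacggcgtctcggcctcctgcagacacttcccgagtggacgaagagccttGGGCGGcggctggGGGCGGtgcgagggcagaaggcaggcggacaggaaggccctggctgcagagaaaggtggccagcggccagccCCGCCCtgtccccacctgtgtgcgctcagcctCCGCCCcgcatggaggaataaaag
Krt8, chr15:102004343-102004592, minus strand: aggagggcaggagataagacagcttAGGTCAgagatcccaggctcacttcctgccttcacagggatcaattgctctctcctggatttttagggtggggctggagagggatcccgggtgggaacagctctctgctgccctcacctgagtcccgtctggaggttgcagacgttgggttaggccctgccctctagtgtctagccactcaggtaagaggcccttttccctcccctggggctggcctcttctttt
Krt18, chr15:102027966-102028215, plus strand: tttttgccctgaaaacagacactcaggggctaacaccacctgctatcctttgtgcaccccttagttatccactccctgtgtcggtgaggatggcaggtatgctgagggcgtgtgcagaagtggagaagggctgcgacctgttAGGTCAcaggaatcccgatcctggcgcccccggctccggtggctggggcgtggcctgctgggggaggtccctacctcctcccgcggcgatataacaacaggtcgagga
The *Krt7* window holds 4 matches to GGGCGG, 2 on each strand, the reverse ones reading CCGCCC. The *Krt8* window holds AGGTCA at -225 to -220 and the *Krt18* window holds it at -108 to -103, counted from the start of the gene. Among 32851 windows of the same length 32.7% hold GGGCGG and 14% hold AGGTCA. The TATA box, AP-1 and Ets letters, found in 12.4%, 4.46% and 12% of all windows, have no match in these 3. A match is a run of letters and not evidence of binding.

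AP-1 and Ets factors are known to act on the human *KRT18* gene through sequences outside this window, so their own transcripts were examined. Of 10 such genes 4 were called higher and 4 lower, or 40% each, beside 18.7% and 23.5% of all genes, with a median log2 fold change of -0.22. *Fosl2*, which encodes the AP-1 subunit Fra-2, rose by 5.59 (SE 0.20, adjusted p = 1.28e-06), from -3.96, -3.58, -3.55 and -4.18 to 1.95, 2.04, 1.51 and 1.6. *Jun* rose by 3.19, *Ets1* by 3.39 and *Ets2* by 1.26. *Fosl1*, which encodes the AP-1 subunit Fra-1, was at least 12.1-fold lower, and *Elf3*, an Ets factor of epithelia, fell by 1.00.

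Keratin filaments end at desmosomes and hemidesmosomes. Of 16 genes for proteins that anchor them there, 6 were called higher and 1 lower, or 37.5% and 6.25%, beside 18.7% and 23.5% of all genes. Their median log2 fold change was 0.04, against 5.60 for the 4 keratins. *Dsp*, which encodes desmoplakin, the protein that ties keratin to the desmosome, read -0.33, 0.06, -0.02 and 0.25 without RA and 3.47, 3.23, 3.16 and 3.42 with it. It rose by 3.33 (SE 0.17, adjusted p = 3.52e-06). *Dsc2*, a desmosomal cadherin, rose by 4.63 (SE 0.32, adjusted p = 1.28e-05), *Ppl* (periplakin) by 2.38 and *Pkp2* (plakophilin 2) by 1.80. *Jup*, which encodes plakoglobin, changed by -0.21 (adjusted p = 0.613) and *Plec*, which encodes plectin, by 0.22 (adjusted p = 0.455), and neither passed the test. The 1 gene called lower was *Evpl* (envoplakin), at -0.90, and it was not called with quantile or median scaling.

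In a list of 8 genes for keratin-binding proteins, which holds *Plec* again, 4 were called higher and 1 lower. These are 50% and 12.5%, beside 18.7% and 23.5% of all genes, and the median was 0.45. *Eppk1* (epiplakin), which bundles keratin filaments, rose by 1.65 (SE 0.24, adjusted p = 0.000697). *Ywhaz*, a 14-3-3 protein of the family that binds phosphorylated keratin 18, rose by 0.84, and *Fam83h*, a keratin-associated scaffold, rose by 0.77. *Tchp* (trichoplein), a keratin-binding protein of the centrosome and desmosome, fell by 1.16.

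Intermediate filament genes other than keratins, those of the nuclear lamins included, went in both directions. Of 16 genes 5 were called higher and 5 lower, or 31.2% each, beside 18.7% and 23.5% of all genes, with a median of 0.14. With the slide as a block 3 were called higher, as also without untreated replicate 1 or 4 or without RA-treated replicate 1, 2 or 3. *Vim*, the vimentin of mesenchymal cells, rose by 3.98 (SE 0.19, adjusted p = 2.94e-06) and *Prph*, the peripherin of peripheral neurons, rose by 3.20. The neurofilament genes *Nefh* and *Ina* fell by 3.31 and 3.25.

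Of 20 other genes of simple epithelia 5 were called higher, 5 lower and 10 were not called, with a median log2 fold change of 0.09. The shares of 25% higher and 25% lower are near those of all genes, 18.7% and 23.5%, and with median scaling 7 were called higher and 2 lower. The tight junction genes *Cldn7*, *Cldn3* and *Ocln* rose by 2.65, 2.30 and 1.96. *Cdh1*, which encodes E-cadherin, changed by -0.02 (adjusted p = 0.921) and *Epcam* by -0.50 (adjusted p = 0.119), and neither passed the test. *Ovol1*, a transcription factor gene of epithelia, fell by 2.05 and was well above background on 3 RA-treated arrays.

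**Figure D4:**
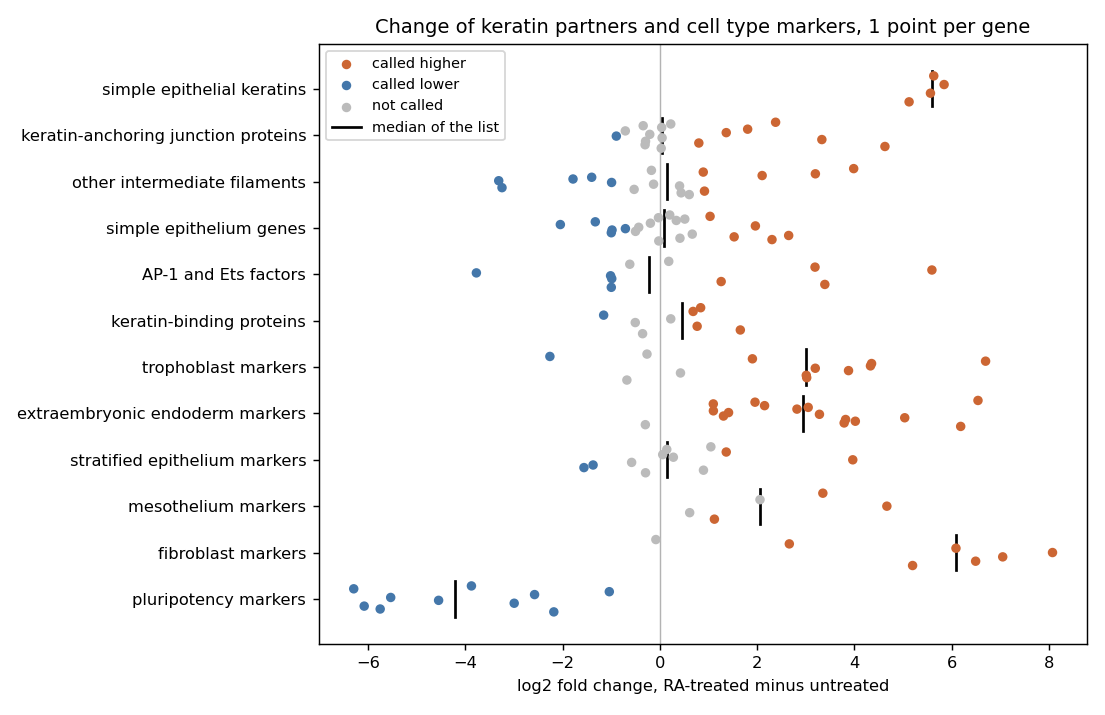
Log2 fold change, RA-treated minus untreated (horizontal axis), of each gene in the lists (vertical axis), with genes called higher in orange, lower in blue and not called in grey, and the median of each list as a black line. The 4 simple epithelial keratins lie at 5.12 to 5.84, while the medians of the keratin-anchoring, keratin-binding and simple epithelium lists are 0.04, 0.45 and 0.09, and genes below background in a condition are drawn at their fitted change.

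Markers of the cell types that can carry simple keratins were measured beside them, with their part in the keratin values not tested, and their counts stand beside 18.7% of all genes called higher and 23.5% lower. Of 16 extraembryonic endoderm markers 15 were called higher, with a median of 2.93, and their summed level went from 132 to 181 times the 75th percentile to 351 to 412 times. The probe of *Sparc*, a matrix protein gene, was already bright in the untreated cells and made up most of this summed brightness. It stood at 86.1 to 124 without RA and at 201 to 249.5 with RA. Without this probe the sum was 41.9 to 57.5 in untreated and 148 to 188 in RA-treated arrays. *Ttr* was at least 43.1-fold higher, and *Afp*, well above background on 1 untreated array, rose by 6.18 and *Foxa2* by 5.03, while *Apoa1* was well above background on no array. Of 12 trophoblast markers 8 were called higher and 1 lower, with a median of 3.01. *Plac1*, well above background on 1 untreated array, rose by 6.70, and *Hand1*, above it on 3, by 4.35. *Gata3* rose by 4.33 and *Cdx2*, a factor that defines trophectoderm, by 3.02, while *Tfap2c* fell by 2.26. *Eomes* changed by 0.42 (adjusted p = 0.625) and *Ascl2* by -0.68 (adjusted p = 0.228), neither of them called, and *Tpbpa* was well above background on no array. The summed level of the 12 trophoblast markers was 26.5 to 33.9 in untreated and 17.8 to 29.0 in RA-treated arrays. The probe of *Tfap2c*, which ES cells also express, made up most of the untreated summed brightness, at 20.1 to 28.9. Without this probe the sum was 5.06 to 6.45 in untreated and 15.4 to 22.6 in RA-treated arrays.

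Of 5 mesothelium markers 3 were called higher, *Upk1b* being at least 9.93-fold higher and *Wt1* rising by 3.35, and their summed level went from 1.19 to 1.81 to 5.05 to 11.5. Of 7 fibroblast markers, a cell type that lacks keratins, 6 were called higher, with a median of 6.09 and a summed level of 1.16 to 2.01 in untreated and 31.6 to 49.7 in RA-treated arrays. *Dcn* rose by 8.07, *Col3a1*, well above background on 3 untreated arrays, by 7.05 and *Col1a2* by 6.49. Of 11 stratified epithelium markers 2 were called higher and 2 lower, with a median of 0.14, *Trp63* changing by 1.05 (adjusted p = 0.170) and *Ivl* and *Dsg3* being well above background on no array. Their summed level was 40.5 to 52.9 in RA-treated arrays, and without *Perp* it was 6.76 to 22.6 in untreated and 11.9 to 20.7 in RA-treated arrays, which overlap.

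The genes with the most similar values over the 8 arrays were sought among 15409 genes other than keratins, each taken relative to its own untreated mean, by the root mean square (RMS) of the log2 differences. For *Krt8* these were *Prss23*, a serine protease gene (RMS 0.13), *Fosl2* (0.20) and *Wfikkn1*, a gene for a secreted protease inhibitor (0.26). For *Krt18* they were *Tgfb2*, which encodes a transforming growth factor (RMS 0.25), *Csf1*, the macrophage growth factor gene (0.29), and *Parva*, a focal adhesion gene (0.29). For *Krt19* they were *Scarf2* (RMS 0.20), *Prss23* (0.25) and *Twist2* (0.26), the last well above background on no untreated array. *Krt7* had no gene as close, the nearest being *Zfp703* (RMS 0.46), *Ppp2r2b* (0.48) and *Prss23* (0.48). The measure is dominated by the size of the change between conditions, which these genes, *Twist2* aside, share with the keratins.

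**Figure D5:**
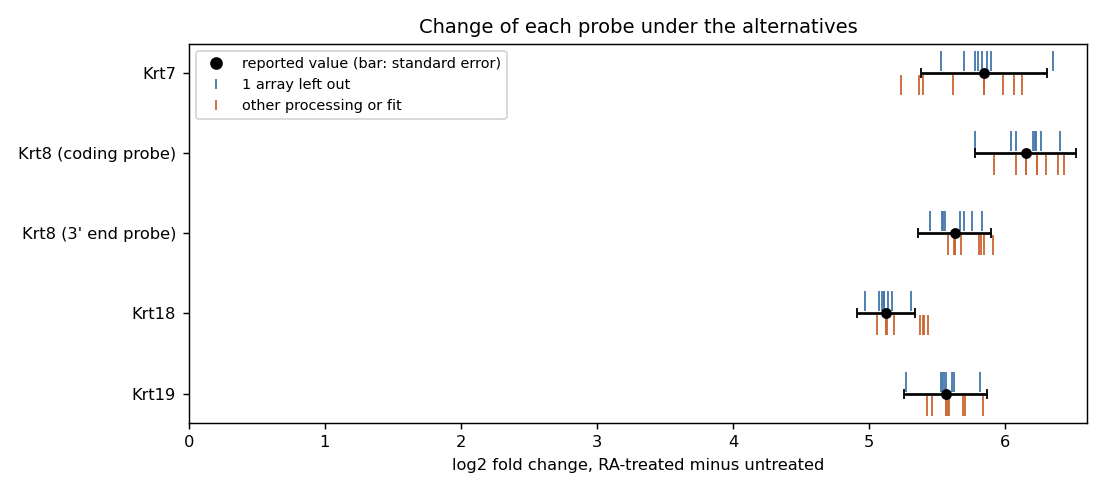
Log2 fold change, RA-treated minus untreated (horizontal axis, from 0), of each keratin probe as reported (black point, bar gives the standard error), with 1 array left out (blue ticks above) and with other processing or other fits (orange ticks below). Every value lies between 4.97 and 6.43, and the ticks of *Krt7* spread most, from 5.24 to 6.35.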

How the data were processed

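The 8 arrays were 4 untreated and 4 RA-treated samples of E14Tg2A.4 cells. Conditions and replicate numbers were taken from the labels. For each array the authors deposited a file of Agilent Feature Extraction (version 10.7.3.1), with a background-corrected intensity per spot that is not normalized between arrays and flags, and also deposited a table of log2 values with the same distribution on all arrays, used as an alternative. The normalization behind that table is not given in the sources used here.

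In R (version 4.3.3) the 75th percentile over the 59305 spots that are not controls was subtracted from the log2 intensity of each array. Outlier spots (124 to 145 per array) were left out, and spots of a probe were averaged. No filter on dim probes was applied. Genes were named by current symbols of the RefSeq table, 18913 names matching directly and 2228 by a synonym, and a gene was represented by its brightest probe on average. The comparison of conditions used limma (version 3.58.1; lmFit, eBayes) and Benjamini-Hochberg adjustment over 55681 probes. A probe well above background on no array of a condition has a bound, the mean of the brighter condition over the mean of, per array, the higher of the lowest signal well above background and the probe's own. Steps were tested on simulated data. The number of arrays limits the precision.

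The 4 keratins were chosen by gene name, and the other genes and lists were chosen with earlier results of these data known. Named from each list were up to 4 genes with the largest change among those called without overlap between conditions, beside defining markers, partners named in the text that were not called, and others added after their values were seen.

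Replicates are numbered 1 to 4 in both conditions. Over 27493 probes well above background on all arrays, deviations of same-numbered arrays from the condition means correlated at 0.186, 0.189, 0.104 and 0.151, and those of other pairs at up to 0.142, with replicate 3 below that value. As all 4 exceed 0.1 the numbers were taken as a possible pairing, which the study does not mention and these correlations do not establish. Only replicates 1 and 2 had both their arrays on the same slide, and the part of the slide in the correlations was not tested. The comparisons given are without the replicate block, and the paired fit and paired tests stand beside them as alternatives. Slide 1 held untreated replicates 1 and 3 and RA-treated replicates 1 and 4, and slide 2 the others. Alternatives were the scaling, the background correction, the authors' values, leaving out dim probes, another choice of probe, the slide and the replicate as blocks, each slide alone, each array left out in turn and a test against 1.5-fold.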

Additional observations from a re-analysis of the deposited data

Results flagged for a closer look

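Arrays were examined for single values far from the other 3 of their condition by Dixon's test. Of 118 groups of 4 arrays 8 had such a value, where 5.9 would be so by chance, and none was in a probe of *Krt7*, *Krt8*, *Krt18* or *Krt19*. Untreated replicate 3 stood high for the keratin *Krt71*, at -1.64 against -3.44 to -3.18, and for *Ppp2r2b*, at -2.70 against -4.78 to -4.64. Untreated replicate 1 stood high for *Vim*, at 2.75 against 2.20 to 2.27, and for *Foxa2*, at 0.0090 against -1.04 to -0.91. Untreated replicate 2 stood high for *Esx1*, at -2.65 against -2.98 to -2.93. RA-treated replicate 2 stood high for *Ina*, at 1.06 against -0.07 to -0.0092, and low for *Ttr*, at -1.40 against 0.15 to 0.22. RA-treated replicate 1 stood high for *Col4a2*, at 3.54 against 3.26 to 3.31.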

How the results depend on the processing

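All 5 keratin probes were called higher under the 12 other settings and with each of the 8 arrays left out. Among the 12, another choice of probe per gene keeps the same fit, so it cannot alter the result of a given keratin probe. The log2 fold changes of the keratin probes ranged over the settings from 5.24 (normexp background correction) to 6.12 (median scaling) for *Krt7*, from 5.92 to 6.43 for the *Krt8* coding probe, from 5.58 to 5.91 for its 3′ end probe, from 5.06 to 5.43 for *Krt18* and from 5.42 to 5.84 for *Krt19*. With 1 array left out they ranged from 5.53 to 6.35, 5.78 to 6.40, 5.45 to 5.83, 4.97 to 5.31 and 5.27 to 5.82 in the same order, in each case lowest without untreated replicate 1 and highest without untreated replicate 3. On slide 1 alone the changes were 5.62, 6.39, 5.68, 5.06 and 5.70 and on slide 2 alone 6.07, 5.92, 5.58, 5.19 and 5.42, and the largest adjusted p of any setting was 0.00937, for *Krt7* on slide 1. With the replicate block, which pairs the arrays, the changes stayed at 5.84, 6.15, 5.63, 5.12 and 5.56. The design fixes this, as each replicate has 1 array of each condition, and the slide block cannot change them either. The adjusted p with the replicate block lay between 0.000118 and 0.000244, and no count moved by over 1.5 times with it.

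Of 500 counts of called genes 445 stayed within 1.5 times and 55 moved. Keratin-anchoring genes called lower became 0 with quantile normalization, median scaling, either slide alone and the test against 1.5-fold, and 3 were called higher on slide 1. Simple epithelium genes called lower became 2 with median scaling, 1 on slide 1, 3 on slide 2 and 1 in the test against 1.5-fold, and 3 were called higher on slide 2. Stratified epithelium markers called lower became 1 with normexp, with normexp and quantile normalization and in the authors' values, and those called higher 1 on slide 1 and in the test against 1.5-fold and 4 on slide 2. Other keratins called higher became 6 with normexp, 7 with normexp and quantile normalization and 7 in the authors' values, and those called lower 5 in both of the latter and 4 on slide 2 and in the test against 1.5-fold. Other intermediate filaments called higher became 3 with the slide as a block, on either slide and in the test against 1.5-fold, and those called lower 2 on slide 1, 3 on slide 2 and 2 in the test against 1.5-fold. AP-1 and Ets genes called lower became 2 on slide 1, 1 on slide 2 and 1 in the test against 1.5-fold. Keratin-binding genes called higher became 0 on slide 1 and 1 on slide 2 and in the test against 1.5-fold, and those called lower 0 on slide 2. With each array left out in turn, keratin-anchoring genes called lower ranged from 0 to 1, other intermediate filaments called higher from 3 to 5, stratified epithelium markers called higher from 1 to 3 and keratin-binding genes called lower from 1 to 2. A slide alone holds 2 arrays of each condition, and the test against 1.5-fold asks for more than the fold limit by construction. The cause of the other moves was not tested.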
